A study of Mus musculus with 21 samples.

Results

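The gene set comprised 10 transcripts: Fos, Fosb, Jun, Junb, Jund, Egr1, Atf3, Ier2, Klf6 and Zfp36. Cells switch most of them on within minutes of a stimulus, and as a set they also mark cells stressed by tissue dissociation. The 10 genes were chosen by name, and each was found once among the 43432 gene identifiers of the count tables. All 10 passed the filter on low counts in both fits used below. The question addressed was how high these transcripts stood in tuft cells, scarce epithelial cells with chemosensory receptors, of 5 mouse organs, and how that related to the way each organ was taken apart.

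Immediate early genes are transcribed by factors already present in the resting cell, so their induction needs no new protein synthesis, and their mRNAs are mostly short-lived. Fos and Jun family proteins pair through leucine zippers to form AP-1, a dimeric transcription factor. Warm digestion and mechanical release of epithelium are known to induce these genes, so in sorted cells they report both the state of the cell in the organ and its handling on the way to lysis.

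Tuft cells came in 3 libraries from small intestine, 4 from colon, 3 from gall bladder, 4 from thymus and 4 from trachea, and non-tuft epithelial cells in 3 libraries from small intestine. All mice were naive and homozygous for Flare25, a fluorescent reporter in the Il25 gene, on the strain C57BL6.Il25(Flare25/Flare25), and every library was sorted as live (DAPI-), CD45-, EPCAM+ cells, reporter-positive for tuft and reporter-negative for non-tuft cells. Each library came from 1 male of 12 weeks, except that each trachea library pooled 4 mice, male at 12 and 16 weeks in pools 1 and 2 and female at 16 and 14 weeks in pools 3 and 4. Small intestine, colon and gall bladder epithelium was released by vortexing after incubation at 37 °C in dithiothreitol and then in 5 mM EDTA, the last step lasting 15 min. Thymus was digested with Liberase and DNase in 3 cycles of 12 min at 37 °C and enriched on Percoll. Trachea was incubated in Dispase for 23 to 28 min and in trypsin for 20 min at 37 °C. Organ and preparation therefore cannot be told apart for thymus and trachea, whereas the 3 EDTA organs and the non-tuft cells shared 1 protocol.

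Summed gene counts were 25739248 to 73574745 per library, and the lowest count of any of the 10 genes in any library was 1236, for Jund. Trachea libraries came from 130 to 453 sorted cells, against 35000 to 36000 for small intestine tuft and 52000 to 57000 for non-tuft cells. The summed level of 10 tuft markers was 5033 to 30374 scaled counts per 1000000 (CPM) over the 18 tuft libraries and 202 to 396 CPM in non-tuft libraries. Within the tuft groups it ran from 22128 to 30374 CPM in small intestine, 5033 to 6459 in colon, 20985 to 22640 in gall bladder, 5499 to 6354 in thymus and 9732 to 15940 in trachea. In bulk samples, fewer cells of a type and less RNA per cell cannot be told apart.

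All 10 are protein-coding genes, and Zfp36 and Egr1 had the highest mean levels per kilobase of exon in every group. In GRCm38 coordinates, Zfp36 lies at chr7:28376784-28380253. Fos lies at chr12:85473890-85477273, Fosb at chr7:19302696-19310051, Jun at chr4:95049034-95052222, Junb at chr8:84974484-84978718 and Jund at chr8:70698949-70700616. Atf3 spans chr1:191170296-191218039, Ier2 chr8:84661331-84662852 and Klf6 chr13:5861482-5870394. The counts sum reads per gene, so no exon or transcript is resolved.

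Before the values, the sequence just upstream of 4 of the genes is shown, because Fos, Jun and Atf3 differed between the organs described below whereas Junb passed no test. The RefSeq table (GRCm38.p6) gave windows for 8 of the 10 genes, and none is printed for Egr1. Each run holds the 250 bases before the RefSeq start, 5′ to 3′ on the gene's strand, with capitals marking TGACG, the core of the cAMP response element, or CGTCA where it lies on the other strand.
Fos (chr12:85473640-85473889, + strand): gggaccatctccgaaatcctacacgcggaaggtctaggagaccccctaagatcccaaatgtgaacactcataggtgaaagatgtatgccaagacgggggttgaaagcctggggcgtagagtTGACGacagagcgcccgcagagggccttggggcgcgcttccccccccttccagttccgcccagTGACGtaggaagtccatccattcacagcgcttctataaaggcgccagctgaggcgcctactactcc
Jun (chr4:95052223-95052472, - strand): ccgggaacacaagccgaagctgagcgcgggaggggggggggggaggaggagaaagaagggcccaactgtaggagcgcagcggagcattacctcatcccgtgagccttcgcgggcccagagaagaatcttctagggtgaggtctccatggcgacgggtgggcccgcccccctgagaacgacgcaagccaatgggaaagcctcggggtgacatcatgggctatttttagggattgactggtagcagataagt
Junb (chr8:84978749-84978998, - strand): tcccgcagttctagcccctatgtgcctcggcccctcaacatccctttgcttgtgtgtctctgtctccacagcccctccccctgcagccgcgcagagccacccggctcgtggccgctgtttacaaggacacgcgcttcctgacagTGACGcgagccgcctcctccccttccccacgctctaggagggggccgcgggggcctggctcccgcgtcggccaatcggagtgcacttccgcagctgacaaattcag
Atf3 (chr1:191183334-191183583, - strand): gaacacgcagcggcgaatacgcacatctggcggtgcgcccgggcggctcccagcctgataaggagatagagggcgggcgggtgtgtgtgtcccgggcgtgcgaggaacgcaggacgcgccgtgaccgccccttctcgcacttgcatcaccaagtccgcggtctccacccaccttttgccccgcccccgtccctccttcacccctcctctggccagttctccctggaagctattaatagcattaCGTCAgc
The start used for Fos and Jun was the same as in the GENCODE M21 annotation, that of Junb lay 30 bases from it, and that of Atf3 was an internal start 34706 bases from the outermost one. The last 7 bases of the Atf3 window fall in an annotated exon.

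In the Fos window the core was found at positions -129 to -125 and -66 to -62 from the start, and in the Junb window at -106 to -102. The Fosb window held it at -60 to -56, and the Atf3 window at -7 to -3 on the other strand. Of all 32851 windows of this length, 17.8% held the core on either strand. A CArG box, the 10-base site bound by serum response factor, was found in the Zfp36 window alone among the 8, at -58 to -49, as CCATAAAAGG, whereas 1.47% of all windows held one. All 250 bases of that window lie in annotated exons, and the RefSeq start of Zfp36 is 1025 bases from the outermost GENCODE start. That of Jund lies 1210 bases upstream of its GENCODE start, so the Jund window does not adjoin the annotated gene. The full element TGACGTCA (1.55% of all windows) and the AP-1 site TGANTCA (6.75%) were found in none of the 8 windows, which says only that these letters are not in these stretches.

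In small intestine, tuft cells held less of most of these transcripts than the non-tuft cells released by the same EDTA protocol. Atf3, Fos, Egr1, Fosb, Klf6 and Ier2 fell, Zfp36 and Junb did not pass the test, and Jun and Jund passed the adjusted p but not the 2-fold minimum. The 10 genes together took 0.459 ± 0.0255% of all counts in tuft libraries (SD, n = 3) and 1.18 ± 0.107% in non-tuft libraries (SD, n = 3).

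Fos, the partner of Jun in the classic AP-1 dimer, stood at 330.1, 291 and 313 CPM in the tuft libraries and at 1052, 1155 and 1140.4 CPM in the non-tuft libraries. Every tuft library lay below every non-tuft library. The log2 fold change was -1.78 ± 0.13 (SE), with an adjusted p of 3.34e-06 (edgeR's quasi-likelihood test, Benjamini-Hochberg over 16063 genes). Fosb, a second Fos family member, was at 435, 282 and 262 CPM in tuft and 902, 1023 and 736 CPM in non-tuft libraries, again without overlap (log2 fold change -1.39 ± 0.21). Jun was at 1059, 1005 and 1077 CPM in tuft and 1456, 1866 and 1549.5 CPM in non-tuft libraries, a log2 difference of -0.57 ± 0.14 (adjusted p = 0.00855).

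The other Jun family members did not follow. Junb had 179.8, 209.9 and 214 CPM in tuft and 163, 193 and 195 CPM in non-tuft libraries, which overlapped. Jund, the member known for steady expression in resting cells, had 77.7, 79.9 and 82.7 CPM in tuft and 48.6, 59.4 and 54.8 CPM in non-tuft libraries, so it alone among the 10 was higher in every tuft library (log2 fold change 0.62 ± 0.13, adjusted p = 0.00325, below the fold minimum). On library totals without TMM the tuft and non-tuft libraries overlapped for Jund, and Junb was at -0.0891. Jun, Junb, Jund and Atf3 each overlap a counted gene on the other strand (Junos, Prdx2, Gm11175 and Gm24748, in that order), and strand use in counting was not given in the sources used here, so these 4 levels carry that uncertainty.

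Egr1, a zinc finger factor induced by growth signals through serum response factor, had 1809, 1444 and 1215 CPM in tuft and 4459, 5091 and 5408 CPM in non-tuft libraries (log2 fold change -1.68 ± 0.17, adjusted p = 4.24e-05). Atf3, a stress-induced factor that pairs with Jun proteins, had 171, 72.8 and 97.2 CPM in tuft and 447, 509.6 and 609 CPM in non-tuft libraries. Its log2 fold change of -2.15 ± 0.28 was the most negative of the 10 genes. Klf6, a zinc finger transcription factor induced by injury, was at 216, 177 and 229.9 CPM in tuft and 496, 439 and 462 CPM in non-tuft libraries (log2 fold change -1.10 ± 0.14).

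Ier2, a small nuclear early response protein, was at 84.6, 78.5 and 98.7 CPM in tuft and 182, 222 and 179.6 CPM in non-tuft libraries. Its log2 fold change of -1.09 ± 0.14 was -0.999 without non-tuft replicate 2, just under the fold minimum. Zfp36, which binds AU-rich elements and speeds the decay of early response and cytokine mRNAs, was at 1858, 2084 and 1836 CPM in tuft and 2179, 2706 and 2943 CPM in non-tuft libraries (log2 fold change -0.38 ± 0.16, adjusted p = 0.0761).

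Thus 6 of the 10 genes fell and 0 rose, where 13.9% of the 16063 genes tested fell and 13.0% rose. In 8 of the 10 every tuft library lay below every non-tuft library, as it did for 31.9% of all genes, and in 1, Jund, above, as for 24.8% of all genes. The median log2 fold change was -1.10 for the 10 genes and -0.03 over all genes. Enterocyte markers summed to 23775 to 29057 CPM in tuft and 12989 to 14859 CPM in non-tuft libraries, goblet markers to 2025 to 2513 CPM in tuft and 100840 to 110840 CPM in non-tuft libraries. Their part in these differences was not tested.

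**Figure D1:**
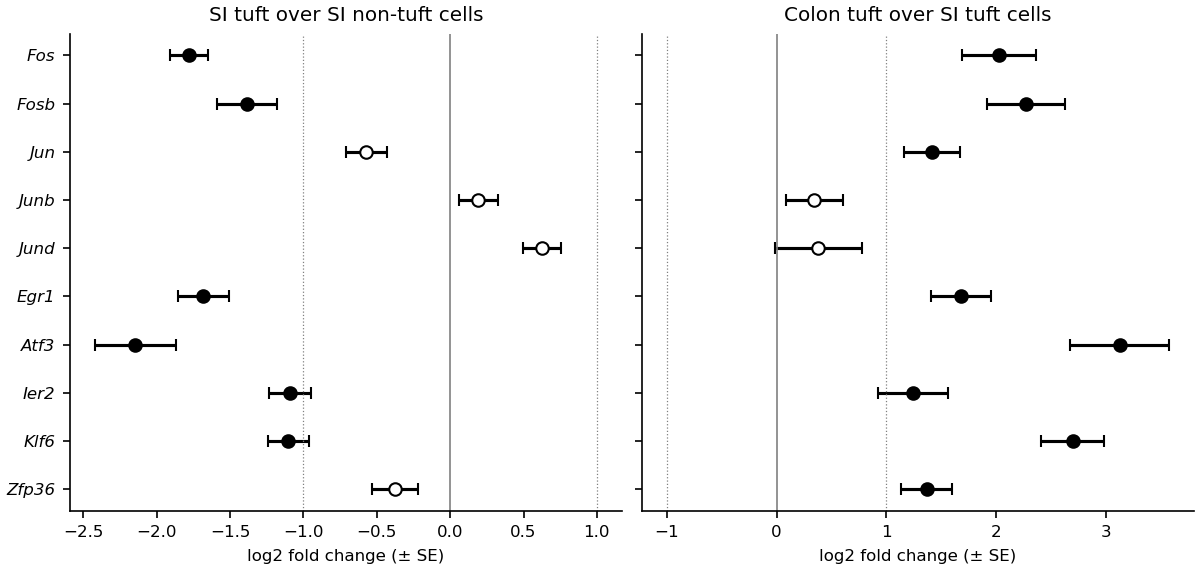
Log2 fold changes (x axes, with bars of 1 SE) of the 10 genes (y axis) between groups released with EDTA, small intestine tuft over small intestine non-tuft cells on the left and colon tuft over small intestine tuft cells on the right. Filled points passed both the adjusted p and the 2-fold minimum (dotted lines at -1 and 1): 6 genes lie filled on the lower side on the left and 8 on the higher side on the right, with Junb and Jund open in both.

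Genes of the same response outside the set were counted beside it. Of 20 other immediate early genes, 19 were tested, of which 9 fell and 1 rose, where 13.9% of all genes fell and 13.0% rose. Those that fell included Nr4a1, an orphan nuclear receptor gene, at 31.5 ± 8.69 CPM in tuft and 184 ± 34.6 CPM in non-tuft libraries (log2 fold change -2.48 ± 0.22), and Ccn1, a secreted matricellular protein gene, at 33.0 ± 3.30 and 251 ± 36.2 CPM in tuft and non-tuft libraries (log2 fold change -2.87 ± 0.16). Of 19 feedback regulators, 4 fell and 2 rose, set against the same shares of all genes. Gadd45g and Tnfaip3, which restrains NF-kappaB signalling, were the 2 that rose, by 1.43 ± 0.18 and 1.23 ± 0.16 on the log2 scale. Of 14 heat shock genes 2 fell, a share near the 13.9% of all genes, and 0 rose, with a median log2 fold change of -0.41 over the list.

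The same EDTA protocol gave quite different levels in other organs. Colon tuft cells held the highest mean level of 7 of these 10 transcripts among all 6 groups, and 8 of the 10 rose in colon against small intestine tuft cells. Gall bladder tuft cells stood near colon for Fosb, Atf3 and Klf6, but with a wide spread. The 10 genes took 1.83 ± 0.119% of counts in colon tuft (SD, n = 4), 1.26 ± 0.536% in gall bladder tuft (SD, n = 3) and 0.459 ± 0.0255% in small intestine tuft libraries.

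**Figure D2:**
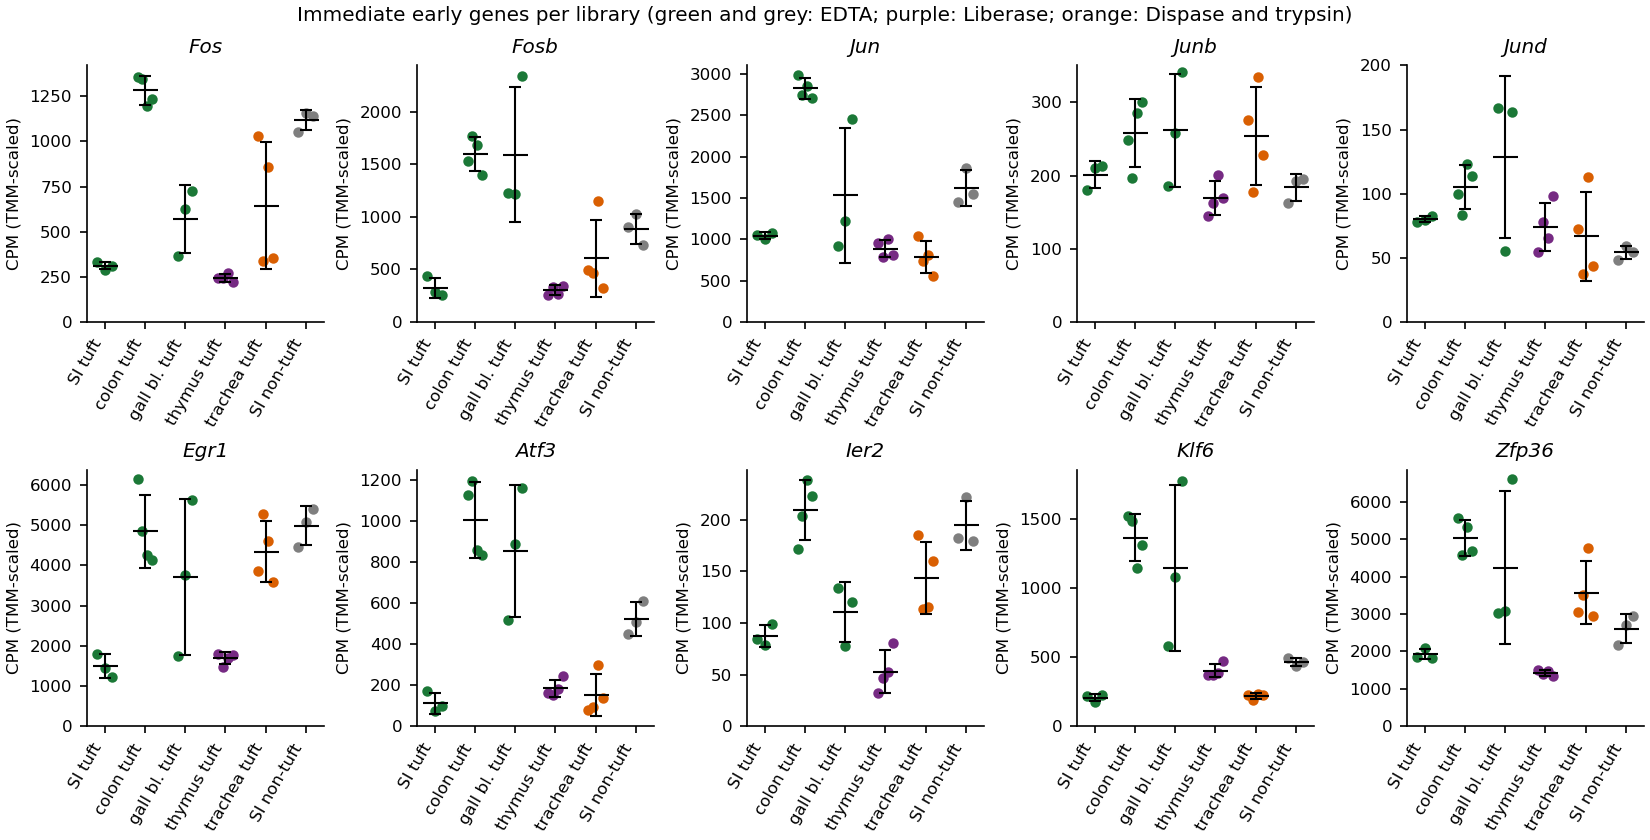
Level of each of the 10 genes (TMM-scaled CPM, linear axes from 0) in every library of the 6 groups on the x axes, where points are libraries and black bars the mean ± SD. Colon tuft libraries stand together near the top for most genes, gall bladder libraries spread widely (Klf6 at 584 to 1779 CPM), and the small intestine tuft libraries for Fos, at 291 to 330.1 CPM, lie below every non-tuft library.

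Fos was at 1356, 1346, 1196 and 1235 CPM in colon tuft libraries, against 330.1, 291 and 313 CPM in small intestine tuft libraries. It rose by 2.03 ± 0.33 on the log2 scale (adjusted p = 0.000411 over 19850 genes). Fosb was at 1535, 1766, 1687 and 1395 CPM in colon tuft libraries, all above the highest small intestine tuft library at 435 CPM (log2 fold change 2.27 ± 0.36). Jun was at 2985, 2744, 2858 and 2714 CPM in colon tuft libraries, against 1005 to 1077 CPM in small intestine tuft libraries (log2 fold change 1.42 ± 0.25).

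Atf3 showed the largest difference of the set. It was at 1128, 1193, 861 and 835 CPM in colon and at 171, 72.8 and 97.2 CPM in small intestine tuft libraries, a log2 fold change of 3.13 ± 0.45 (adjusted p = 9.4e-05). Klf6 followed, at 1520.2, 1487, 1145 and 1316 CPM in colon and 177 to 229.9 CPM in small intestine tuft libraries (log2 fold change 2.70 ± 0.29, adjusted p = 4.36e-06). The remaining genes that rose were Egr1 (1.68 ± 0.28), Zfp36 (1.37 ± 0.23) and Ier2 (1.25 ± 0.32). The Ier2 call was lost when any 1 of the 3 small intestine tuft libraries was left out (log2 fold change 1.19 to 1.34, adjusted p 0.058 to 0.101). Junb (0.35 ± 0.26) and Jund (0.38 ± 0.40) did not pass the test.

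Of all genes tested, 4.46% rose and 3.9% fell in colon against small intestine tuft cells, whereas 8 of these 10 rose and 0 fell. In 9 of the 10 every colon library lay above every small intestine tuft library, as it did for 19.0% of all genes. The summed tuft markers were 5033 to 6459 CPM in colon and 22128 to 30374 CPM in small intestine tuft libraries. Enterocyte markers differed most, at 490 to 714 CPM in colon and 23775 to 29057 CPM in small intestine tuft libraries. Goblet markers summed to 5599 to 8065 CPM in colon and 2025 to 2513 CPM in small intestine tuft libraries. Markers of dividing cells summed to 603 to 953 CPM in colon and 256 to 389 CPM in small intestine tuft libraries. The part of these differences in the result was not tested. Mitochondrial transcripts took 17.7 to 23.0% of counts in colon and 24.1 to 33.5% in small intestine tuft libraries. With those transcripts left out of the scaling the same number of the 10 genes, 8, rose, where 867 of 19729 genes tested did.

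The wider response followed in part. Of the 20 other immediate early genes 10 rose and 1 fell in colon against small intestine tuft cells, where 4.46% of all genes rose and 3.9% fell. The median log2 fold change was 1.66 over the list and 0.12 over all genes. Nr4a1 was at 623 ± 107 CPM in colon and 31.5 ± 8.69 CPM in small intestine tuft libraries (log2 fold change 4.28 ± 0.44), and Ccn1 at 351 ± 56.7 and 33.0 ± 3.30 CPM in colon and small intestine tuft libraries. The gene that fell was Ptgs2, which encodes the inducible cyclooxygenase, at 3.12 ± 0.861 CPM in colon and 21.8 ± 5.49 CPM in small intestine tuft libraries. Fosl1 and Fosl2, further Fos family genes, rose as well, by 3.65 ± 1.04 and 1.92 ± 0.56 on the log2 scale. The heat shock genes did not move with them: 0 of 14 rose and 0 fell, with a median of 0.02.

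In gall bladder tuft cells, 5 of the 10 genes rose against small intestine tuft cells, where 7.21% of all genes did. Atf3 was at 518, 886 and 1159 CPM in gall bladder, every library above the small intestine maximum of 171 CPM (log2 fold change 2.91 ± 0.46). Klf6 was at 584, 1081 and 1779 CPM in gall bladder tuft libraries (2.45 ± 0.29), and Fosb at 1228, 1213 and 2335 CPM (2.27 ± 0.37). In 5 of the 10 genes, Fos, Fosb, Atf3, Klf6 and Zfp36, every gall bladder library lay above every small intestine tuft library, as it did for 13.3% of all genes. Egr1, at 1741.5, 3751 and 5624 CPM, and Zfp36, at 3039.7, 3087 and 6598 CPM, rose by 1.30 ± 0.28 and 1.12 ± 0.24 on the log2 scale. Both of these calls were lost without gall bladder replicate 4, at 0.87 and 0.65.

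Gall bladder replicate 4 was the highest of its group for 8 of the 10 genes, all but Jund and Ier2, and replicate 1 the lowest for 7. Their tuft marker sums were close, at 22474 CPM in replicate 4 and 22640 CPM in replicate 1, but other traits differed. Replicate 4 came from 2700 sorted cells and replicate 1 from 1750. Airway secretory markers summed to 1.83 CPM in replicate 4 and 513 CPM in replicate 1, and airway ciliated markers to 125 and 25.2 CPM. The part of these differences in the spread was not tested. Against colon tuft cells, 1 of the 10 fell in gall bladder, where 9.25% of all genes fell. This was Fos, at 364, 624 and 726 CPM in gall bladder and 1196 to 1356 CPM in colon tuft libraries (log2 fold change -1.16 ± 0.32, adjusted p = 0.0166). Without gall bladder replicate 1 the difference was -0.89 and no longer passed. On library totals without TMM 3 of the 10 fell (Fos, Jun and Ier2), where 2092 of all 19850 genes did.

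The balance of Fosb and Fos is given as a description chosen after the values were seen. The ratio of their CPM, which does not depend on the scaling of the library, was 1.94 to 3.37 in gall bladder tuft libraries, 1.13 to 1.41 in colon, 0.837 to 1.32 in small intestine, 0.96 to 1.57 in thymus and 0.481 to 1.37 in trachea tuft libraries, and 0.645 to 0.885 in non-tuft libraries. The gall bladder libraries did not overlap with any other group.

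In thymus tuft cells, released with Liberase, heat shock genes were high with TMM scaling, the only scaling under which they were counted. The level of the set depended on the scaling. With TMM scaling, Fosb, Fos, Atf3, Zfp36 and Ier2 fell against the mean of the 3 EDTA tuft groups, and 0 of the 10 rose, where 7.46% of all genes fell and 26.3% rose. On library totals without TMM 0 of the 10 fell and 0 rose, where 831 of all 19850 genes fell and 6740 rose. On totals that also left out mitochondrial transcripts 1 fell, Fosb, and 0 rose, where 1062 of 19729 genes fell and 5768 rose. TMM factors were 1.36 to 1.47 in thymus and 0.712 to 1.03 in EDTA tuft libraries.

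The median log2 fold change of the 10 genes was -0.93 with TMM and -0.42 on library totals, below the median of all genes in both cases, which was 0.37 with TMM and 0.89 on totals. As a share of all counts the set took 0.762 ± 0.0412% in thymus libraries (SD, n = 4), which is above small intestine tuft at 0.459 ± 0.0255% and below colon tuft at 1.83 ± 0.119%. Mitochondrial transcripts took 4.38 to 5.97% of counts in thymus and 14.8 to 33.5% in EDTA tuft libraries.

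Fos was at 242, 247, 274 and 221 TMM-scaled CPM in thymus, below every EDTA tuft library, of which the lowest was at 291 CPM (log2 fold change -1.18 ± 0.26, adjusted p = 0.00133). Zfp36 was at 1503, 1398, 1470.5 and 1340.2 CPM in thymus and at 1836 CPM or more in every EDTA tuft library (log2 fold change -1.13 ± 0.18, adjusted p = 7.82e-05). With TMM these 2 of the 10 thus lay below every EDTA tuft library, as 4.83% of all genes did. The order turned on library totals, where Fos was at 299.8 to 379 counts per 1000000 in thymus and 235 to 257 in small intestine tuft libraries, and Zfp36 at 1815 to 2198 in thymus and 1323 to 1778 in small intestine tuft libraries. With mitochondrial transcripts also left out of the totals, thymus and small intestine tuft libraries overlapped for both genes.

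Of the other TMM-scaled levels, Fosb, at 257, 337, 263 and 347 CPM in thymus (2.83-fold lower, adjusted p = 0.000308), Atf3, at 165, 152, 184 and 246 CPM (-1.16 ± 0.33), and Ier2, at 31.9, 46.7, 52.7 and 80.8 CPM (-1.12 ± 0.26), overlapped with the small intestine tuft libraries. The mean of the EDTA groups is raised by colon and gall bladder. Set against each organ on its own, thymus tuft cells had 8 of the 10 genes lower than colon, where 7.5% of all genes fell, and 5 of 10 lower than gall bladder, where 9.74% fell. On library totals these counts were 8 and 2, where 1065 and 1106 of all 19850 genes fell against colon and gall bladder. Against small intestine tuft cells 0 of the 10 fell and 1 rose, where 8.27% of all genes fell and 17.4% rose. That was Klf6, at 373, 374, 389 and 472 CPM in thymus and 177 to 229.9 CPM in small intestine tuft libraries, and its log2 fold change of 1.08 ± 0.27 dropped just under the fold minimum, to between 0.97 and 1.00, in 10 of 18 fits that left out 1 library, those without small intestine replicate 3, colon replicate 1, trachea replicate 3 or any 1 of the gall bladder or thymus libraries. On library totals 3 of the 10 rose in thymus against small intestine tuft cells (Klf6, Atf3 and Egr1) and 0 fell. On those totals 5067 of all 19850 genes rose and 972 fell.

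Of the 14 heat shock genes, 8 rose in thymus against the EDTA tuft groups (26.3% of all genes rose) and 0 fell, with a median log2 fold change of 1.10 beside 0.37 over all genes. Hspa1a and Hspa1b, the near-identical genes of the inducible Hsp70 chaperone, between which reads may have been split, were at 328 ± 27.7 and 249 ± 33.5 CPM in thymus tuft libraries (SD, n = 4). Over the 3 EDTA tuft groups the means were 84.6 to 135 CPM for Hspa1a and 40.2 to 116 CPM for Hspa1b. Dnajb1, an Hsp70 co-chaperone, was at 806 ± 118 CPM in thymus and 217 to 370.3 CPM as group means in EDTA tuft cells (log2 fold change 1.59 ± 0.24, adjusted p = 3.62e-05).

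Of the 20 other early genes 5 rose and 2 fell in thymus, shares near the 26.3% and 7.46% of all genes. Ptgs2 was at 379.9 ± 34.0 CPM in thymus, against group means of 3.12 to 26.9 CPM in EDTA tuft cells (log2 fold change 5.09 ± 0.46). Egr3, a relative of Egr1, was at 123 ± 30.1 CPM in thymus, against group means of 3.38 to 25.0 CPM in EDTA tuft cells (4.14 ± 0.36). Of the 19 feedback regulators 3 rose and 1 fell in thymus, where 26.3% and 7.46% of all genes did. Those that rose included Dusp4, a phosphatase that inactivates MAP kinases. It was at 169 ± 16.7 CPM in thymus, against group means of 3.05 to 23.5 CPM in EDTA tuft cells (4.12 ± 0.56). Thymocyte markers summed to 6.96 to 20.5 CPM in thymus libraries, and to 20.8 to 30.9 CPM in small intestine, 3.32 to 5.62 CPM in colon and 19.9 to 42.9 CPM in gall bladder tuft libraries. Myeloid markers summed to 219 to 276 CPM in thymus, against 5.90 to 71.5 CPM in EDTA tuft libraries. Thymic epithelial markers summed to 940 to 1100.5 CPM in thymus and to at most 9.90 CPM in EDTA tuft libraries. Their part in the result was not tested.

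Trachea tuft cells, released with Dispase and trypsin, divided the set. Egr1, Zfp36 and Fos stood at intermediate to high levels, whereas Klf6, Atf3 and Jun fell against the mean of the EDTA tuft groups, in which 13.6% of all genes fell and 19.2% rose. Klf6 was at 228, 188, 236 and 228 CPM in trachea, a narrow range beside its 177 to 1779 CPM over the EDTA tuft libraries (log2 fold change -1.61 ± 0.22, adjusted p = 1.37e-05). Atf3 was at 79.1, 94.3, 298.5 and 138 CPM in trachea tuft libraries (-1.55 ± 0.34, adjusted p = 0.00139). Both overlapped with the small intestine tuft libraries.

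Jun was at 1037, 737, 811 and 559 CPM in trachea tuft libraries, and its log2 fold change of -1.05 ± 0.20 sat at the fold minimum. It was -0.89 without the female pools and -0.999 to -0.885 in 5 of the 18 fits that left out 1 library. These were the fits without small intestine replicate 2, 3 or 4, gall bladder replicate 4 or trachea replicate 4. On library totals without TMM the Jun value was -0.94, also under the fold minimum. Egr1 was at 3869, 5276, 4614.5 and 3589 CPM in trachea, all above the highest small intestine tuft library at 1809 CPM and overlapping with colon, at 4146 to 6136 CPM. Its difference from the EDTA mean was 0.56 ± 0.20 (adjusted p = 0.0345), under the fold minimum. Fos, at 1028, 339, 855 and 353 CPM, split into high and low trachea libraries that did not follow the sex of the pools.

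Against small intestine tuft cells alone, 2 of the 10 genes rose in trachea, where 13.1% of all genes did: Egr1 (1.55 ± 0.27, adjusted p = 0.000289) and Fos (1.06 ± 0.32, adjusted p = 0.0188). The Fos call was lost without trachea replicate 1 or 3 or small intestine replicate 3, with adjusted p 0.0561 to 0.0616 over these 3 fits. With the replicate number as a block it was also lost (log2 fold change 0.95, adjusted p = 0.0516). On library totals 5 of the 10 rose, where 3291 of all 19850 genes did. On totals without mitochondrial transcripts 1 rose, Egr1, where 2479 of 19729 genes did. Against colon tuft cells 4 of the 10, Klf6, Atf3, Jun and Fosb, fell in trachea (14.3% of all genes did), and against gall bladder tuft cells 3 of the 10, Klf6, Atf3 and Fosb, fell (12.2% of all genes). Against thymus tuft cells, the other group digested with enzymes, 4 of the 10 rose in trachea, where 7.24% of all genes did. These were Ier2 (1.33 ± 0.29), Fos (1.27 ± 0.29), Egr1 (1.24 ± 0.25) and Zfp36 (1.21 ± 0.21). Without trachea replicate 1 the value for Fos was 0.97. On library totals none of these 4 passed the fold minimum (0.80 to 0.95) and Klf6 fell in trachea, where 784 of all 19850 genes rose and 4765 fell.

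**Figure D3:**
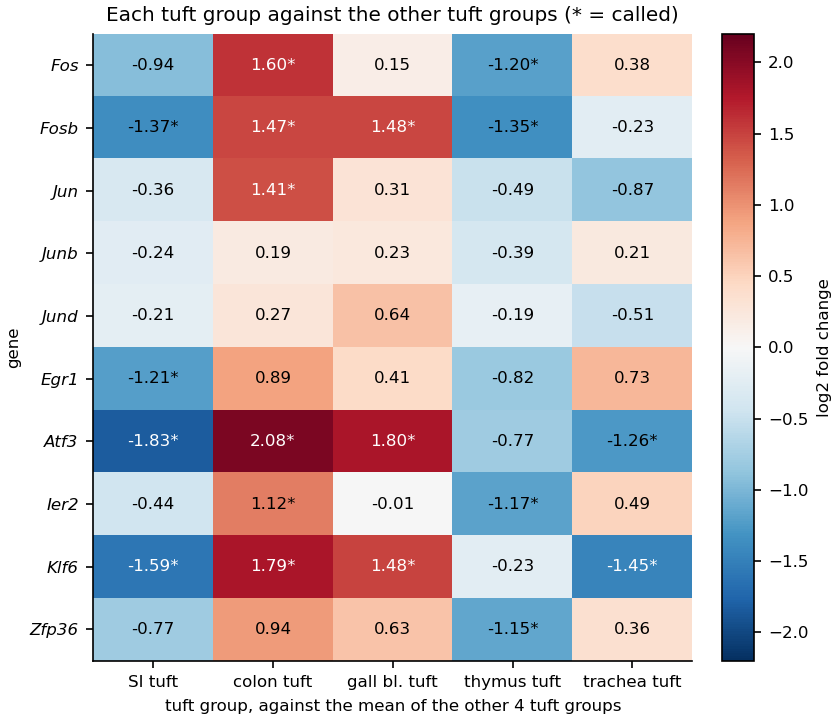
Log2 fold change (colour and printed value) of each of the 10 genes (rows) in each tuft group (columns) against the mean of the other 4 tuft groups, with asterisks on values that passed the adjusted p and the 2-fold minimum. Atf3 and Klf6 carry asterisks in opposite directions in small intestine and trachea (lower) and in colon and gall bladder (higher), and the Junb and Jund rows hold none.

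Each tuft group was also compared with the average log level of the remaining 4. Colon tuft had 6 of the 10 genes higher (10.7% of all genes were), gall bladder tuft 3 (12.7% of all genes), and 0 of the 10 were lower in either (5.78% of all genes in colon and 8.79% in gall bladder). Small intestine tuft had 4 of the 10 lower (7.45% of all genes), thymus tuft 4 (5.64%) and trachea tuft 2 (13.7%), and 0 of the 10 were higher in any of these 3, where 10.0%, 26.8% and 17.3% of all genes were higher in small intestine, thymus and trachea tuft. These 5 comparisons share libraries, and the matrix of fold changes gives their values side by side. Fos and Jun stood higher in every colon library than in every other tuft library, as 3.0% of all genes did, and with TMM Fos and Zfp36 stood lower in every thymus library, as 1.21% of all genes did. The 4 thymus calls depended on TMM, with 0 of the 10 lower on library totals and 1, Fosb, on totals without mitochondrial transcripts. In these 2 scalings 539 of 19850 and 722 of 19729 genes were lower. In trachea the positive values for Egr1 (0.73), Ier2 (0.49), Fos (0.38) and Zfp36 (0.36) did not pass, that for Egr1 because of the fold minimum alone (adjusted p = 0.00549).

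The ratio to Egr1 within a library shows the trachea pattern free of scaling. Klf6 over Egr1 was 0.0356 to 0.0637 in trachea tuft libraries, below the lowest library of every other group (0.0855 in non-tuft, 0.12 in small intestine, 0.208 in thymus, 0.248 in colon and 0.288 in gall bladder). Jun over Egr1 was 0.14 to 0.268 in trachea tuft libraries and 0.287 or more in all other libraries. Atf3 over Egr1 was 0.0179 to 0.0647 in trachea tuft libraries and overlapped only with small intestine tuft, at 0.0504 to 0.0943. These ratios were chosen after the values were seen and carry no test.

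**Figure D4:**
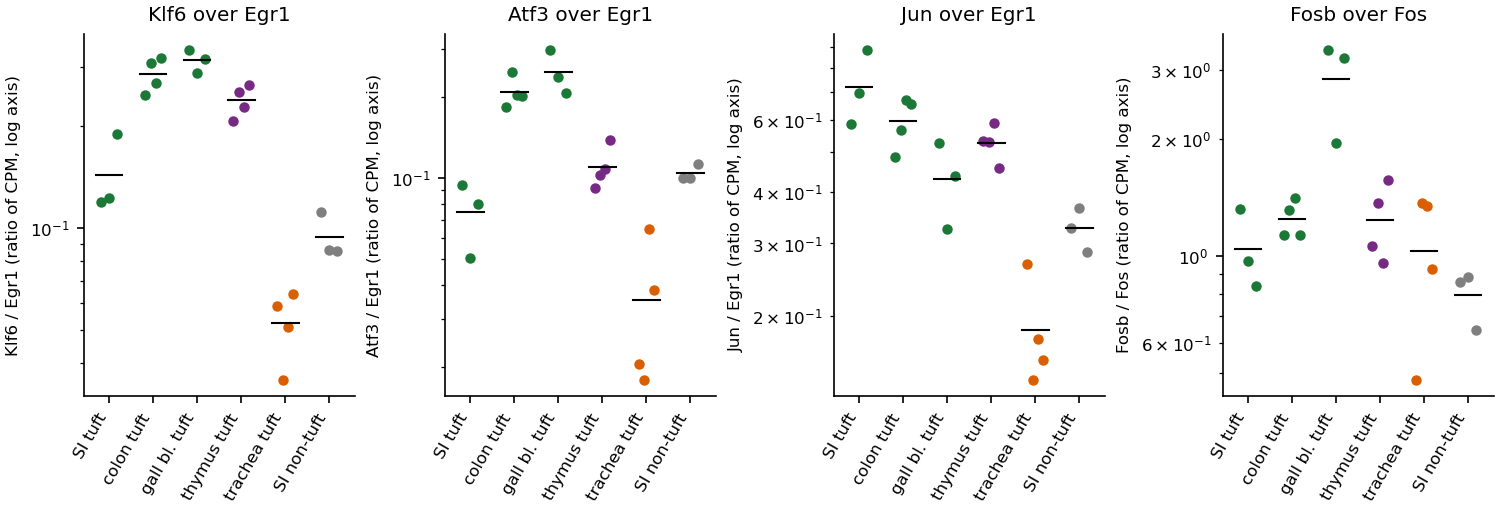
Ratio of the CPM of a pair of genes within each library (log y axes) for the 6 groups on the x axes, with points for libraries and black lines for group means. Klf6 and Jun over Egr1 are lowest in the 4 trachea libraries (0.0356 to 0.0637 and 0.14 to 0.268), and Fosb over Fos is highest in the 3 gall bladder libraries (1.94 to 3.37).

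Of the other early genes in trachea 3 of 20 rose and 3 fell against the EDTA tuft groups, near the 19.2% and 13.6% of all genes. Egr3 was at 197 ± 40.2 CPM in trachea, against group means of 3.38 to 25.0 CPM in EDTA tuft cells (log2 fold change 4.72 ± 0.37). Ccn1 was at 21.1 ± 17.5 CPM in trachea, against group means of 33.0 to 1276 CPM (-3.54 ± 0.54), and Ier5 at 13.1 ± 15.8 CPM, against 87.7 to 235 CPM (-3.24 ± 0.62). Of 19 feedback regulators 5 fell and 0 rose, among them Tnfaip3 and Gadd45a (-2.50 ± 0.33), and of 14 heat shock genes 1 rose and 2 fell, set against the same shares of all genes.

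Airway secretory markers summed to 25809 to 113640 CPM in trachea libraries, with the highest value in replicate 1, which was also highest for Fos, Jun and Ier2. Myeloid markers summed to 1747 to 3830.5 CPM in trachea, nearly all of it Lyz2 (1742 to 3820 CPM), while Fcer1g was at 0 in every trachea library and Csf1r, Itgam and Tyrobp were at most at 0.0942, 0.247 and 3.03 CPM. The part of these markers in the trachea result was not tested.

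**Figure D5:**
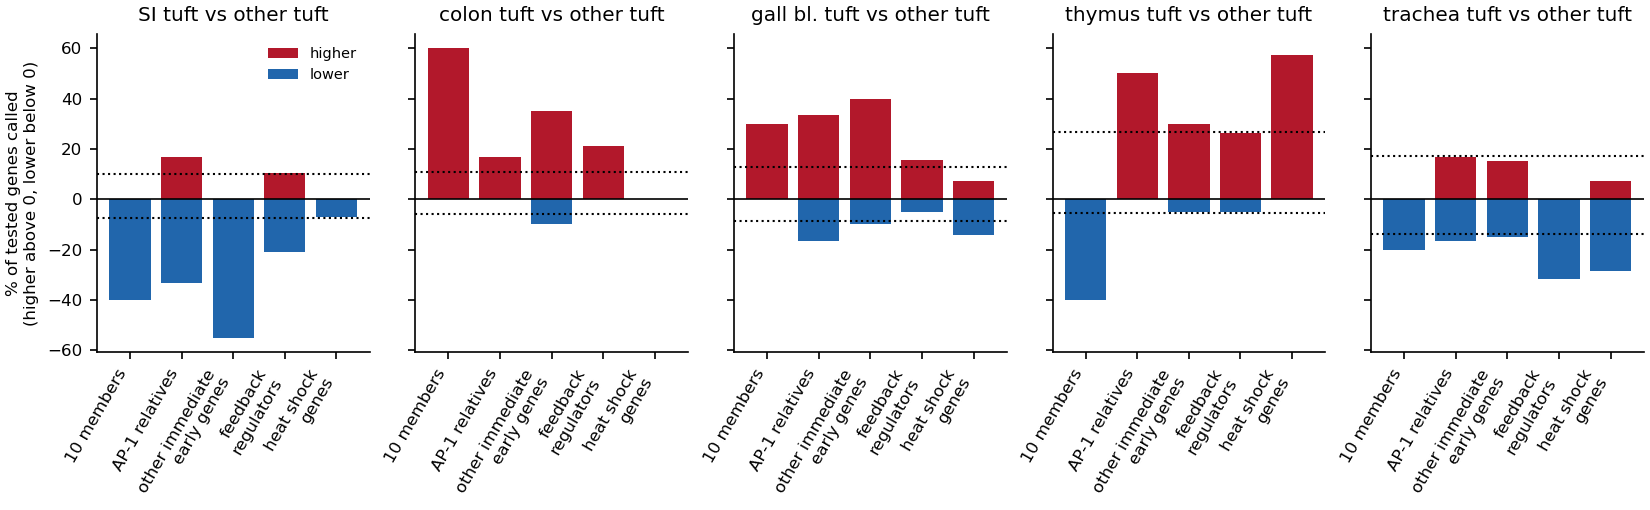
Percentage of the tested genes of each list (x axes) called higher (red, above 0) or lower (blue, below 0) in each tuft group against the mean of the other 4, with dotted lines at the percentage over all genes tested. In thymus 8 of 14 heat shock genes were higher. There 4 of the 10 genes of the set were lower with the TMM scaling shown but 0 on library totals, where 539 of 19850 genes were lower. In colon 6 of the 10 were higher with 0 of 14 heat shock genes called.

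Over all 10 pairs of tuft groups the 10 genes gave 41 calls of 100, where 23.0% of all such tests were called. Klf6 was called in 7 of its 10 pairs, Fos, Fosb and Atf3 in 6 each, Egr1 and Zfp36 in 5, Jun and Ier2 in 3, and Junb and Jund in 0. The highest over the lowest mean of a tuft group was 8.85 for Atf3 (colon over small intestine), 6.57 for Klf6 (colon over small intestine), 5.30 for Fosb and 5.22 for Fos (both colon over thymus, with TMM). It was 1.54 for Junb (gall bladder over thymus) and 1.93 for Jund (gall bladder over trachea). Between neighbours in the order of levels, for Fos the trachea (644 ± 351 CPM) and gall bladder (571 ± 187 CPM) did not differ beyond their spread. Small intestine (311 ± 19.6 CPM) and thymus (246 ± 21.5 CPM) tuft libraries did not overlap with TMM. Their difference did not pass edgeR's quasi-likelihood test (log2 fold change -0.21 ± 0.31 in thymus, adjusted p = 0.683). Their order also turned on library totals, so the lowest group is not settled for Fos.

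Per kilobase of exon, the 5 AP-1 subunit genes were present in different proportions. Jun was the most abundant of them in every group but trachea, with 50.6 ± 0.876% of the summed CPM per kilobase in small intestine tuft, 47.6 ± 0.883% in colon, 39.7 ± 5.17% in gall bladder, 50.6 ± 4.10% in thymus and 41.0 ± 1.76% in non-tuft libraries, and 33.6 ± 7.01% in trachea, where Fos held 33.8 ± 7.55%. Fos and Fosb together with Jun rose in colon, and Junb held 6.03 ± 1.16% of the sum there, against 13.5 ± 1.57% in small intestine tuft. In non-tuft libraries Fos held 38.4 ± 2.09% of the sum, against 20.4 ± 0.602% in small intestine tuft libraries.

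Among the genes outside the set, that with the pattern most like Fos over the 21 libraries was Golm1 (Pearson r = 0.928 of log2 CPM among 9394 genes averaging 10 CPM or more), followed by Cnot1 (0.868), Atp2c2 (0.863), Kitl (0.855) and Muc4 (0.846). Fosb was most like Rhob (0.934), another early response gene, and Atf3 most like Klf6 (0.923), then Rhob (0.899) and Fosb (0.892). Klf6 resembled Errfi1 (0.915) and Ifrd1 (0.913), and Egr1 resembled Atp13a3 (0.902) and Atm (0.892). Jun was most like Cldn23 (0.899), Junb like Cmtm4 (0.869), Jund like Bicdl2 (0.833), Ier2 like Pdxdc1 (0.897) and Zfp36 like Umps (0.902). The libraries fall into 6 groups that share organ, preparation and cell number, so these coefficients mostly describe group means. As deviations from the group means, Egr1 and Klf6 (r = 0.75), Jun and Zfp36 (0.713) and Fos and Jun (0.704) varied together within groups, while Egr1 and Ier2 did not (-0.336), over 21 libraries that differ in depth and cell number.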

How the data were processed

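The authors deposited 1 table of whole-number counts per gene for each of 21 libraries, with no normalization, per the file headers and values. Per the labels' protocols, oligo(dT) beads captured the mRNA, whose cDNA was amplified with NuGEN Ovation V2 before Nextera XT library construction. No molecular identifiers are named, so reads are not independent molecules. STAR, DESeq2 and GRCm38 are named in the submitters' processing notes. Counter, strand use and annotation were not given in the sources used here. Of 4 replicates sorted per group, 1 each of the non-tuft, gall bladder and small intestine tuft groups failed the submitters' quality control, per the series text. Each library is 1 mouse or 1 pool, and whether libraries of different groups shared mice was not established here.

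Identifiers were matched to GENCODE M21 (42548 matched, 884 did not, with 0.0986% of counts). The 10 genes, the other lists and the tests were chosen with earlier results of these data known. The test was that of edgeR 4.0.16 in R 4.3.3 (filterByExpr, TMM, quasi-likelihood F test on trended dispersions, two-sided, Benjamini-Hochberg over all genes tested), checked on simulated counts. A gene rose or fell (a call) where the adjusted p was under 0.05 and the change at least 2-fold. SEs are approximate, from the fold change and its F statistic. Tuft and non-tuft cells of small intestine were fitted on 6 libraries (16063 genes), and tuft groups on 18 libraries (19850 genes), where a contrast with several groups averages their log levels. Levels are CPM scaled by TMM over 21 libraries, mean ± SD. Besides the 10 genes, at most the 4 called genes of each list with the largest changes were named, plus the 5 (Fos) or 3 (others) genes with the highest correlation. Alternatives were DESeq2 1.42.0, RLE scaling, TMM without mitochondrial transcripts, other filters, limma 3.58.1 voom weights, a replicate block, no fold minimum, a fit of all libraries, no female pools and leaving out each library. Library totals without TMM, with and without mitochondrial transcripts, were added after the data were seen. Python 3.11.15, pandas 2.3.3 and matplotlib 3.10.9 were used for summaries and plots.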

Additional observations from a re-analysis of the deposited data

Results flagged for a closer look

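In 30 groups of 4 libraries examined, 1 library stood far from the others of its group by Dixon's ratio in 2 cases, and chance alone gives about 1 in 20. Klf6 was highest in thymus tuft replicate 4, at 472 CPM, where the other thymus libraries lay at 373 to 389 CPM. Klf6 was lowest in trachea tuft replicate 2, at 188 CPM, where the other trachea libraries lay at 228 to 236 CPM.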

How the results depend on the processing

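The number of the 10 genes called kept within 1.5 times of its value in the 9 comparisons under all alternatives but 3, the absence of a fold minimum and the 2 scalings without TMM. With no minimum fold change it was 4 for trachea against the other tuft groups (2 with the minimum) and 8 for thymus against the EDTA groups (5 with it). Leaving out 1 library gave 5 to 6 calls in tuft against non-tuft cells, 4 to 4, 6 to 8, 3 to 4, 4 to 5 and 2 to 3 for small intestine, colon, gall bladder, thymus and trachea against the other tuft groups, 5 to 5 and 2 to 4 for thymus and trachea against the EDTA groups, and 37 to 45 over all pairs. Scaling by library totals without TMM, added after the data were seen, gave 0 calls in thymus against the other tuft groups and 0 against the EDTA groups (4 and 5 with TMM), and 1 and 1 where mitochondrial transcripts were also left out. It moved the median of all genes by up to 0.68 (thymus against small intestine tuft, 1.045 against 0.361). Of all genes called, the share that was higher on totals was 32.5% in small intestine tuft against non-tuft cells (48.3% with TMM), 41.0% against the other tuft groups (57.4%), 68.4% in colon against small intestine (53.3%), 89.0%, 83.9% and 82.7% in thymus against the EDTA groups, small intestine and gall bladder (77.9%, 67.8% and 68.2%) and 14.1% in trachea against thymus (25.9%). It was 38.5% in gall bladder against colon (49.3%) with mitochondrial transcripts also left out. On totals, values that had not passed changed sign for Jun (0.0004), Junb (0.0987), Jund (0.305) and Klf6 (0.255) in thymus against the other tuft groups, for Junb (0.157) and Jund (0.184) there against the EDTA groups, and for Junb in small intestine tuft against non-tuft cells (-0.0891). Without mitochondrial transcripts they did so for Jund (0.0986) and Klf6 (0.0417) in thymus against the other groups and for Fos (-0.0284) and Zfp36 (-0.038) in trachea against the EDTA groups. Of 74 called values none changed sign, and 776 of 814 fits under other alternatives and 1232 of 1260 without 1 library kept the call. Values that changed sign had not passed the test. Ier2 in gall bladder against the other tuft groups (-0.01) was 0.0309 without mitochondrial transcripts in the scaling, 0.0124 with no filter, 0.021 with voom and -0.13 to 0.21 without 1 library. Fos and Jun there (0.15 and 0.31) were -0.0327 to 0.43 and -0.18 to 0.61 without 1 library. Against the EDTA groups in trachea, Fos (0.09) was -0.13 with voom and -0.20 to 0.31 without 1 library, Junb (0.12) -0.0643 without the female pools and -0.0541 to 0.27 without 1 library, and Zfp36 (0.08) -0.0728 without the female pools and -0.11 to 0.22 without 1 library. Without gall bladder replicate 4, Egr1 (1.01) and Zfp36 (1.06) also passed in colon against the other tuft groups. Fosb passed in trachea against the EDTA groups without trachea replicate 3 (-1.12), and its call against gall bladder was lost without gall bladder replicate 4 (-0.99), as was that of Fos in thymus against gall bladder (-0.96, and -0.98 with DESeq2 or RLE). Jund passed in gall bladder against the others without gall bladder replicate 3 (1.02), Egr1, just past the minimum, in thymus against the others without gall bladder replicate 1, and Jun in trachea against the others without trachea replicate 1 (-1.01). Klf6 in thymus against small intestine tuft cells was 0.99 without mitochondrial transcripts in the scaling, 0.96 with no filter and 0.99 without the female pools. Fos in trachea against small intestine tuft cells was 0.84 with voom. For all of these the cause was not tested. RLE scaling raised the median of all genes in thymus against the EDTA groups to 0.48, against 0.37. The share of all genes called moved more: colon against small intestine tuft had 1660 calls, 2723 with DESeq2 and 5051 with voom, and small intestine tuft against non-tuft cells 4327, and 1324 in the fit of 21 libraries. With a replicate block, 120 of 121 values kept their side of the threshold, the exception being Fos in trachea against small intestine tuft cells (0.95), and the member counts were 6, 4, 6, 3, 4, 2, 5 and 3 in the order above. Of the 21 libraries, 18 correlated best with a library of their own number, and the main tests took no account of replicate number. The correlations were small, at r -0.033 to 0.13 over 45 pairs of the same number and -0.074 to 0.084 over 138 other pairs. Trachea libraries came from at most 453 cells, and read depth does not bound the sampling of molecules.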

Other observations

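Gall bladder tuft cells also carried high levels of early response genes outside the set. Of the 20 other immediate early genes, 8 rose and 2 fell against the other tuft groups (12.7% and 8.79% of all genes), with a median log2 fold change of 0.97 over the list and -0.19 over all genes. Ccn1 was at 1276 ± 428 CPM in gall bladder (SD, n = 3), against group means of 21.1 to 351 CPM in the other tuft groups (adjusted p = 6.89e-07 by edgeR's quasi-likelihood test). Maff, a small Maf transcription factor gene, was at 371 ± 123 CPM in gall bladder, against 24.8 to 262 CPM as group means in the others. Of the 19 feedback regulators 3 rose and 1 fell, where 12.7% and 8.79% of all genes did. Among those that rose was Dusp5, a nuclear phosphatase that inactivates ERK. It was at 205 ± 88.1 CPM in gall bladder, against group means of 14.6 to 40.8 CPM in the others.

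Of the 14 heat shock genes 1 rose and 2 fell in gall bladder against the other tuft groups, set against the same shares of all genes. The gene that rose was Hspa5, the chaperone of the endoplasmic reticulum, at 2143 ± 204 CPM in gall bladder and 479.7 to 854 CPM as group means in the others (log2 fold change 1.63 ± 0.23). Hspa1b fell, at 40.2 ± 16.6 CPM in gall bladder against group means of 37.4 to 249 CPM in the others, and so did Hspd1, a mitochondrial chaperonin gene, at 52.3 ± 8.19 CPM in gall bladder (log2 fold change -1.06 ± 0.23).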
